A study of Homo sapiens with 6 samples.

Results

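The genes described are 10 cytokines that act on lymphocytes or on myeloid cells, namely IL23A, IL12A, IL24, IL32, IL7, IL15, TSLP, CSF1, CSF2 and CSF3, in cultured human sebocytes. They were taken by symbol from the deposited table of 58735 genes, and each of the 10 symbols matched 1 row. The cells were SZ95, an immortalised line of human sebaceous gland origin. One group of 3 libraries had been transfected with a mock plasmid (labelled wild type) and the other, also of 3, with a plasmid that overexpresses TRPV3; both are labelled 24 h. TRPV3 is a calcium-permeable cation channel of skin epithelium, and the series asks about its part in sebocyte inflammation. SZ95 is a single cell line, and the series' design text calls the 3 replicates of each group biological. The labels do not say what share of the cells took up the plasmid. Levels are in FPKM, which divides the fragments of a gene by its length and by library depth, and are given as mean ± SD with n = 3.

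Interleukin 23 and interleukin 12 are heterodimers: IL23A encodes the p19 chain and IL12A the p35 chain, and each needs the shared p40 chain, encoded by IL12B, to be secreted as the active cytokine. In skin, IL-23 maintains T cells that make IL-17, whereas IL-12 directs T cells towards interferon gamma. IL-7, IL-15 and TSLP are epithelial products that sustain T cells, natural killer cells or, for TSLP, dendritic cells that favour type 2 responses. IL-24 belongs to the IL-20 subfamily, which signals between leukocytes and epithelium; IL-32 has no homologue among the other interleukins and induces further inflammatory cytokines. M-CSF (CSF1), GM-CSF (CSF2) and G-CSF (CSF3) drive the growth of macrophages, of dendritic cells and granulocytes, and of neutrophils. Many of these genes are textbook targets of NF-kB and AP-1, so their promoters were searched for those motifs.

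The promoter stretches of IL23A, IL32 and IL24 are shown because the groups did not overlap in these genes, the TRPV3 libraries being higher. The same held for CSF3, but no promoter stretch was available for it. Each stretch shown is the 250 bases before a RefSeq start, 5′ to 3′ on the plus strand of GRCh38.p14. They lie at chr12:56338634-56338883, chr16:3065153-3065402 and chr1:206897193-206897442. Capitals mark every match, on either strand, to the NF-kB consensus or to the AP-1 motif TGANTCA, the cyclic AMP response element TGACGTCA (CRE) and the core promoter motif TATAAA, named TATA.
IL23A: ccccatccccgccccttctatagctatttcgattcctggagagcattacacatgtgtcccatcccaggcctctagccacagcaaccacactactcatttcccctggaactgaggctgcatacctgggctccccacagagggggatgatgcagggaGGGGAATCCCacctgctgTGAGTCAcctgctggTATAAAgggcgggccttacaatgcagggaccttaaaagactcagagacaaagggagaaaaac
IL32: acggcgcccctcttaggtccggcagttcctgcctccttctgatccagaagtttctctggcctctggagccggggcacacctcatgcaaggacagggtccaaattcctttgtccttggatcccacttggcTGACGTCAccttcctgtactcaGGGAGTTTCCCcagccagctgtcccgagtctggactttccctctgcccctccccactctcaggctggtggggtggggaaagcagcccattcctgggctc
IL24: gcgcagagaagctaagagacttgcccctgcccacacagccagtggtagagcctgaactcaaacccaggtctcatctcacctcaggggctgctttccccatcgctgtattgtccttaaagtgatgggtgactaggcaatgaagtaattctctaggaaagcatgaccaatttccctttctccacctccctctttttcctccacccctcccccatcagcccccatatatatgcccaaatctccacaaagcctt

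Within its last 100 bases before the start IL23A held 3 different matches: GGGGAATCCC (NF-kB, -95 to -86 from the start), TGAGTCA (AP-1, -77 to -71) and TATAAA (-62 to -57). IL32 held a CRE match at -121 to -114 and an NF-kB match at -99 to -90, which overlaps a second one read on the other strand at -98 to -89. The second RefSeq start of IL32 had no match, and neither had IL24 or CSF2. IL12A, whose values did not separate the groups, held 1 NF-kB match, GGGGTGTCCC, at -44 to -35. Of 3 TSLP starts, 1 held an NF-kB match (-191 to -182) and a TATA match (-100 to -95). Such letters are common: of 35116 windows of this length in the RefSeq table, 9.96% held the NF-kB match, 6.57% the AP-1 match, 1.65% the CRE match and 10.7% the TATA match. The table held windows for 6 of the 10 genes, with 9 starts, and none for IL7, IL15, CSF1 or CSF3.

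**Figure D1:**
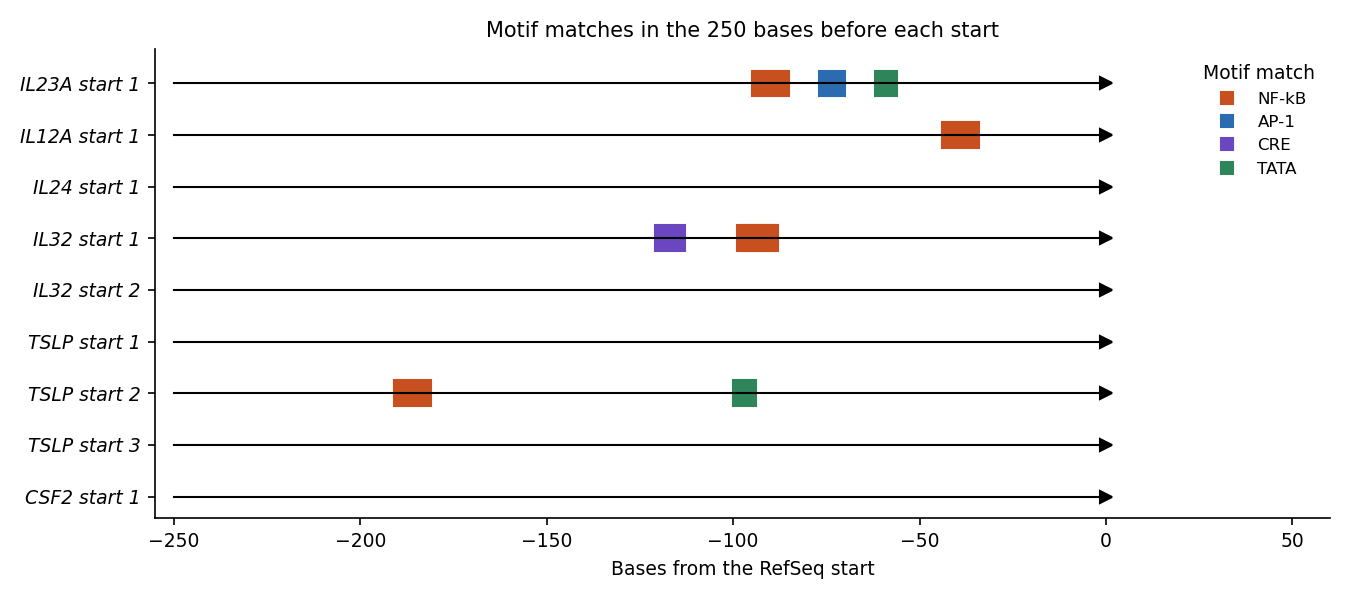
Positions of motif matches (coloured boxes) in the 250 bases before each RefSeq start of 6 cytokine genes; the x axis is the distance in bases from the start and arrows mark the start. IL23A carries NF-kB, AP-1 and TATA matches between -95 and -57, IL32 start 1 a CRE and an NF-kB match, and IL24 and CSF2 none.

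The plasmid and the identity of the cells were checked first. TRPV3 stood at 0.404 ± 0.0400 and 648 ± 103 FPKM, mock and TRPV3 libraries in that order here and below (log2 fold change of FPKM + 1 of 8.84, SE 0.12, limma adjusted p = 2.7e-07). Recovered reads per library ranged from 16015998 to 18365785. Of 10 sebocyte and sebaceous markers 7 averaged at least 1 FPKM, led by KRT7, and their summed level was 832 to 872 FPKM in mock and 856 to 927 FPKM in TRPV3 libraries; MC5R, a melanocortin receptor of mature sebocytes, had 1 read in all. Of 9 T and natural killer cell markers 0 averaged 1 FPKM. Their sum was 0.205 to 0.879 FPKM in mock and 0.206 to 0.513 FPKM in TRPV3 libraries. PTPRC, CD2, CD3D, CD3E and NKG7 had reads in mock replicate 3 only (at most 8) and CD3G had none. GNLY had 4 to 16 reads in every library, CD8A 0 to 15 and CD4 0 to 7. Of 9 macrophage and dendritic cell markers only CD14 averaged 1 FPKM, and their sum was 1.73 to 2.07 FPKM in mock and 1.28 to 1.82 FPKM in TRPV3 libraries. Keratinocyte markers were also present: 5 of 8 averaged at least 1 FPKM, led by KRT5 at 155 FPKM, with sums of 179 to 215 FPKM in mock and 187 to 195 FPKM in TRPV3 libraries and no read of LOR. KRT10 was higher in every TRPV3 library (16.0 ± 2.58 and 19.9 ± 1.06 FPKM, log2 fold change 0.30, SE 0.12, limma adjusted p = 0.755). So was SOX9, of the sebocyte markers (13.3 ± 0.884 and 16.9 ± 1.28 FPKM, log2 fold change 0.33, SE 0.09, limma adjusted p = 0.755). Among all genes averaging at least 1 FPKM, 9.49% were higher in this way. Of the 5 keratinocyte markers tested 3 had a log2 fold change above 0, while KRT5 (-0.09) and DSG3 (-0.19) were below. Of the 7 sebocyte markers tested 5 were above 0, while FASN (-0.15) and SCD (-0.07) were below. Of 6 fibroblast markers COL1A1 alone averaged 1 FPKM (sums 2.37 to 2.91 and 2.05 to 2.20 FPKM). It was lower in every TRPV3 library, as were 5.39% of all genes averaging at least 1 FPKM. Of 5 melanocyte markers MITF alone averaged 1 FPKM (sums 4.70 to 5.16 and 4.20 to 4.95 FPKM). What part these cell markers have in the cytokine values was not tested.

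Mock replicate 3 and TRPV3 replicate 1 stood apart from the other libraries, and their values bear on these low genes. Mock replicate 3 had reads in 34467 genes, where the other 5 had them in 22311 to 23072. In it 9477 genes had reads that no other library had, against 355 to 459 such genes in each of the others. Of 381 olfactory receptor genes, chosen after the data were seen as genes an epithelial cell should not use, 217 had a read in mock replicate 3 and 13 to 15 in each other library. At the olfactory rate of mock replicate 3, 0.634 reads per kb, IL12A would receive 1.29 reads, CSF3 1.41 and TSLP 2.72. The reads recovered there were 21, 8 and 2. This rate is an average and sets no upper bound for a gene. In mock replicate 3 alone, 28 of the listed family and marker genes had reads, up to 11 each. Mock replicate 3 was the highest mock library in 5 of the 10 genes: IL12A, IL15, CSF1, CSF2 and CSF3. How often it was the highest over all genes was not counted. Its part in the results was not tested beyond leaving it out. TRPV3 replicate 1 differed by gene length: its values fell by 0.0804 on the log2 scale per doubling of length, where the slope in the others lay between 0.00231 and 0.0344.

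**Figure D2:**
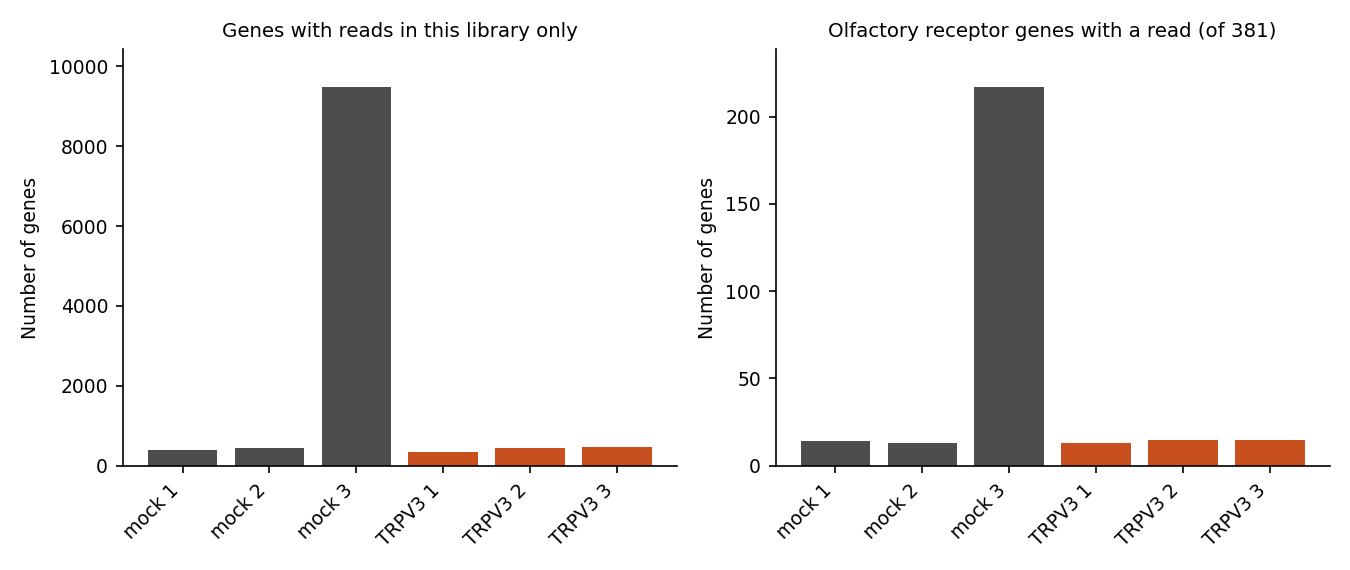
Number of genes with reads in 1 library only (left) and number of olfactory receptor genes with at least 1 read (right), 1 bar per library, mock in grey and TRPV3 in orange. Mock replicate 3 reaches 9477 genes and 217 olfactory receptor genes, far above the other 5 libraries.

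Of the 10 cytokine genes 4, IL23A, IL24, IL32 and CSF3, were higher in every TRPV3 library than in any mock library, and 0 were lower in every one. Among all genes averaging at least 0.2 FPKM, which 9 of the 10 did, 7.68% were higher in this way and 5.8% lower. Of the 3 that averaged at least 1 FPKM, IL23A and IL32 were among the 4, where 9.49% of such genes were, and 0 of the 3 were lower throughout, where 5.39% were. Without mock replicate 3 the number above was 7, now with CSF1, CSF2 and IL12A, where 11.8% of genes were, and it was also 7 without mock replicate 3 and TRPV3 replicate 1, where 17.6% were. In both cases 1 gene, TSLP, was below, where 12.1% and 18.4% of genes averaging 0.2 FPKM were; TSLP itself is under that level. The ratio of means was 4.07 for CSF3, 2.15 for IL24, 1.43 for IL23A and 1.41 for IL32. In bulk RNA, more cells that make a message and more message per cell cannot be told apart. For each of the 4 the two-sided permutation p, which is exact, was 0.1, and no smaller p is possible with 3 libraries a group. The test across all genes called none of them at the main settings. Only IL23A, IL32 and CSF1 averaged 1 FPKM and were tested: 0 of these 3 passed (limma), where 0.0411% of 12177 genes were called higher and 0% lower. At an unadjusted limma p under 0.05, 2 of the 3 stood out (IL23A and IL32), as did 546 of the 12177 genes (4.48%). The 3 fold changes had a median of 0.29 on the log2 scale, against 0.01 for all genes tested. With genes down to 0.2 FPKM included, 0 of 9 passed by limma (0.0289% of all genes were called higher), and 0 of 9 passed by limma-voom on recovered reads of all libraries (0.0358% called higher). These 10 genes were chosen with earlier results of the same data known.

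**Figure D3:**
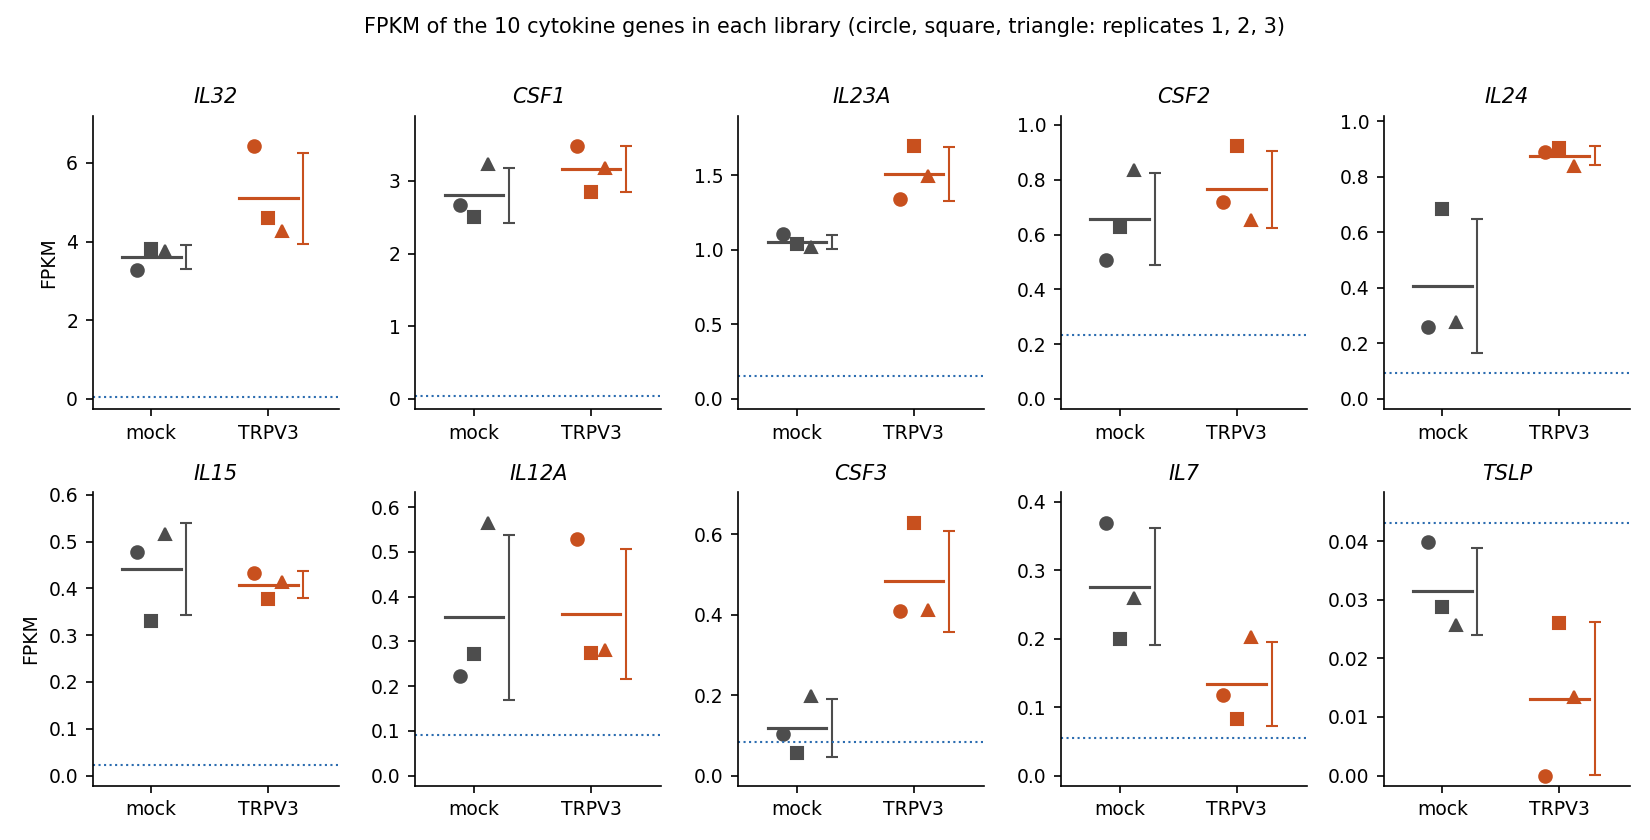
FPKM of the 10 cytokine genes (y axis, linear, each panel on its own scale) in the 3 mock (grey) and 3 TRPV3 (orange) libraries, with the group mean as a bar, the SD beside it, and a dotted line at the highest 3-read floor of the 6 libraries. Symbols are replicates 1 (circle), 2 (square) and 3 (triangle). In IL32, IL23A, IL24 and CSF3 the groups do not overlap, and every TSLP value lies under the line.

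IL23A (ENSG00000110944, chromosome 12, 56334174 to 56340410, plus strand, hg38) stood at 1.1, 1.04 and 1.02 FPKM in mock replicates 1 to 3 and at 1.34, 1.69 and 1.49 FPKM in TRPV3 replicates 1 to 3. The mock libraries were close to each other, and the lowest TRPV3 library, replicate 1, still lay above all of them. Means were 1.05 ± 0.0449 and 1.51 ± 0.179 FPKM, from 23, 20 and 22 reads against 28, 36 and 31. On the log2 scale the difference was 0.29 (SE 0.10), with a limma adjusted p of 0.755. It was 0.15 (SE 0.15) with the trend of each library on gene length removed, and 0.50 (SE 0.24) by limma-voom on recovered reads, which adds no pseudocount of 1 FPKM. The ratio of summed reads was 1.43, with a 95% interval of 1.03 to 2.0 (exact conditional binomial). All such intervals cover counting error only, and with this many reads they often leave out 1: of genes averaging at least 1 FPKM, 30.9% had an interval above 1 and 25.1% one below, where IL23A, IL32 and CSF1 were all above. The IL23A interval reached below 1 without mock replicate 2 or 3 (0.989 and 0.972) or without TRPV3 replicate 2 (0.928), and also when scaled to total reads (0.99996) or without mock replicate 3 and TRPV3 replicate 1 together (0.9995).

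IL12A (ENSG00000168811, chromosome 3, 159988750 to 159996019, plus strand), the corresponding chain of IL-12, had 8, 9 and 21 reads in mock and 19, 10 and 10 in TRPV3 libraries. Its level was 0.353 ± 0.185 and 0.361 ± 0.145 FPKM, and 1 library in each group, mock replicate 3 and TRPV3 replicate 1, stood far above the others. The ratio of reads was 1.01 (95% interval 0.627 to 1.62), 1.46 without mock replicate 3 and 0.774 without TRPV3 replicate 1, so no direction can be read. IL12A shares 78 exonic bases with IL12A-AS1 on the opposite strand, which had 8 reads in mock replicate 3 and at most 1 elsewhere. IL12B, the p40 chain that both need, had 0 reads in 5 libraries and 6 in mock replicate 3. A count of 0 reads still allows 3, so p40 transcripts were not detectable at this depth in any TRPV3 library.

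IL24 (ENSG00000162892, chromosome 1, 206897443 to 206904139, plus strand) had 9, 22 and 10 reads in mock and 31, 32 and 29 in TRPV3 libraries. In FPKM these were 0.259, 0.685 and 0.277 against 0.888, 0.904 and 0.838. The 3 TRPV3 libraries lay close together, while mock replicate 2 lay between the other mock libraries and the TRPV3 group. Means were 0.407 ± 0.241 and 0.876 ± 0.0345 FPKM. The ratio of reads was 2.20 (95% interval 1.51 to 3.26). Of 8526 genes under 1 FPKM with at least 10 reads in all, 3.34% had an interval above 1, as IL24 and CSF3 had, and 16.2% one below 1, as IL7 had. For IL24 the ratio was 3.27 without mock replicate 2 and 1.89 without mock replicate 3. By limma-voom, which could include this gene, the log2 fold change was 1.24 (SE 0.36, adjusted p = 0.759 over 16746 genes). Its neighbours of the same family on chromosome 1 were nearly silent: IL19 had reads in mock replicate 3 only (5), IL20 had 2 and IL10 had 1, both in TRPV3 replicate 2.

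IL32 (ENSG00000008517, chromosome 16, 3065297 to 3082192, plus strand) was the most abundant of the 10. It stood at 3.26, 3.8 and 3.76 FPKM in mock and 6.43, 4.60 and 4.27 FPKM in TRPV3 libraries. TRPV3 replicate 1 was far above the other TRPV3 libraries, which lay closer to mock. Means were 3.61 ± 0.299 and 5.10 ± 1.16 FPKM, and the difference was 0.39 on the log2 scale (SE 0.14, adjusted p = 0.755 by limma). Without TRPV3 replicate 1 it was 0.24 (SE 0.08, limma adjusted p = 0.609). With 602 reads in mock and 868 in TRPV3 libraries, the ratio of reads was 1.41 (95% interval 1.27 to 1.57), or 1.23 (1.09 to 1.39) without that library. IL32 overlaps the exons of RNU1-125P, a small nuclear RNA pseudogene that had no read.

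Of the lymphocyte growth factors, IL7, IL15 and TSLP all had read ratios below 1, and the counting interval left out 1 for IL7 alone. IL7 (ENSG00000104432, chromosome 8, 78675743 to 78805523, minus strand) had 22, 11 and 16 reads in mock and 7, 5 and 12 in TRPV3 libraries, or 0.276 ± 0.0860 and 0.134 ± 0.0617 FPKM. The groups met at their edge, with mock replicate 2 at 0.200 FPKM and TRPV3 replicate 3 at 0.202 FPKM. The ratio of reads was 0.480 (95% interval 0.282 to 0.798), and the interval reached 1.04 without mock replicate 1. IL7 shares 322 exonic bases with ZC2HC1A on the opposite strand, which had 115 to 138 reads a library, and with the strand setting not given such reads cannot be divided with certainty.

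IL15 (ENSG00000164136, chromosome 4, 141636599 to 141733987, plus strand) had 66, 42 and 74 reads in mock and 60, 53 and 57 in TRPV3 libraries. Its 3 TRPV3 values, 0.433, 0.377 and 0.415 FPKM, all fell within the mock range of 0.329 to 0.517 FPKM. The ratio of reads was 0.916 (95% interval 0.739 to 1.14). TSLP (ENSG00000145777, chromosome 5, 111070062 to 111078024, plus strand) had 3, 2 and 2 reads in mock and 0, 2 and 1 in TRPV3 libraries. All 6 counts are at or under the 3-read floor, which for TSLP is 0.0385 to 0.0432 FPKM, so no difference was detectable.

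Of the colony-stimulating factors, CSF3 differed by the largest ratio among the 10 genes. CSF3 (ENSG00000108342, chromosome 17, 40015361 to 40017813, plus strand) had 4, 2 and 8 reads in mock and 16, 25 and 16 in TRPV3 libraries. In FPKM these were 0.103, 0.0555 and 0.198 against 0.408, 0.629 and 0.412, with mock replicate 2 under the floor of 3 reads. The highest mock library, replicate 3, lay well below the lowest TRPV3 library. Means were 0.119 ± 0.0725 and 0.483 ± 0.126 FPKM, and the ratio of reads was 3.99 (95% interval 2.20 to 7.76), or 6.05 (2.62 to 17.2) without mock replicate 3. By limma-voom with all libraries the log2 fold change was 2.01 (SE 0.49, adjusted p = 0.759). With sample quality weights added it was 2.54 (SE 0.46, adjusted p = 0.0123), where 0.615% of 16746 genes were called higher and CSF3 was the only one of the 9 cytokine genes included that was called.

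CSF2 (ENSG00000164400, chromosome 5, 132073790 to 132076170, plus strand) had 7, 8 and 12 reads in mock and 10, 13 and 9 in TRPV3 libraries. The groups overlapped, at 0.657 ± 0.167 and 0.766 ± 0.140 FPKM, with a ratio of reads of 1.16 (95% interval 0.675 to 2.02). IL3, its neighbour on chromosome 5, had 1 read in all. CSF1 (ENSG00000184371, chromosome 1, 109910242 to 109930992, plus strand) stood at 2.67, 2.50 and 3.23 FPKM in mock and 3.47, 2.85 and 3.18 FPKM in TRPV3 libraries. Mock replicate 3 lay above 2 of the 3 TRPV3 libraries. The difference on the log2 scale was 0.13 (SE 0.11, adjusted p = 0.755 by limma), 0.21 without mock replicate 3 and 0.08 without TRPV3 replicate 1.

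**Figure D4:**
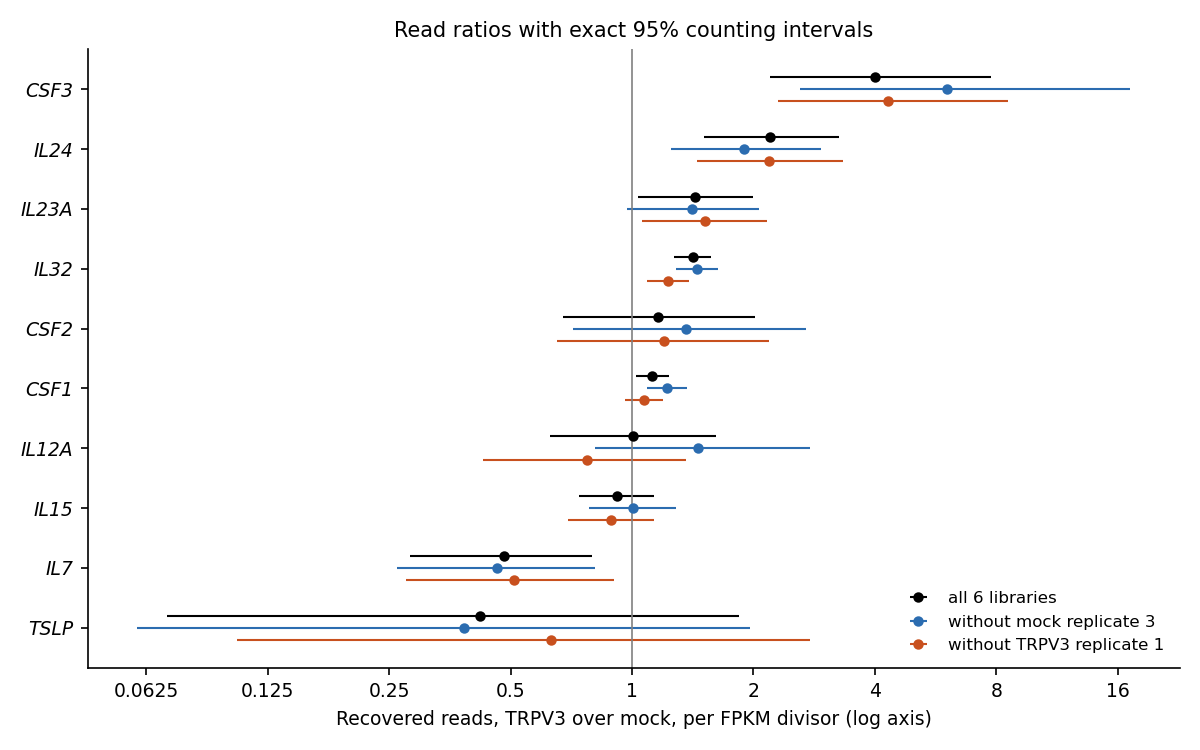
Ratio of recovered reads per FPKM divisor, TRPV3 over mock (x axis, log scale), for each of the 10 cytokine genes, with exact 95% counting intervals for all 6 libraries (black), without mock replicate 3 (blue) and without TRPV3 replicate 1 (orange). CSF3, IL24 and IL32 stay above 1 and IL7 below 1 in all 3 cases, and TSLP, with 10 reads in all, has the widest interval.

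By level per length with the mock plasmid, the order was IL32 (3.61 FPKM), CSF1 (2.80), IL23A (1.05), CSF2 (0.657), IL15 (0.441), IL24 (0.407), IL12A (0.353), IL7 (0.276), CSF3 (0.119) and TSLP (0.0314). Neighbours from CSF2 to IL7 in this order overlapped between libraries. With the TRPV3 plasmid IL24 (0.876 FPKM) and CSF3 (0.483 FPKM) stood above IL15 (0.408 FPKM). The lowest IL24 value, 0.838 FPKM, exceeded every IL15 value, whereas the CSF3 range of 0.408 to 0.629 FPKM overlapped that of IL15.

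Receptor chains for some of these cytokines were present and for others not detectable. Both chains of a receptor for IL-24, IL20RB (18.2 ± 2.05 and 19.6 ± 2.59 FPKM, mock and TRPV3) and IL22RA1 (6.96 ± 0.654 and 6.75 ± 0.421 FPKM), were expressed, and IL20RA stood at 0.754 ± 0.0864 and 0.682 ± 0.204 FPKM. IL15RA, which presents IL-15 to neighbouring cells, stood at 3.36 ± 0.236 and 3.79 ± 0.422 FPKM. IL4R stood at 21.7 ± 0.675 and 22.6 ± 0.849 FPKM, and IL13RA1 at 8.30 ± 0.364 and 7.51 ± 0.758 FPKM. IL7R, shared by the receptors of IL-7 and TSLP, had 13 to 21 reads in mock and 15 to 34 in TRPV3 libraries. IL2RG, the common gamma chain of the IL-7 and IL-15 receptors, had 1 to 2 reads in each library, and IL2RB had 3 to 9. IL12RB1, a receptor chain for IL-12 and IL-23, had 0, 0 and 3 reads in mock and 0, 1 and 2 in TRPV3 libraries. CSF1R, the M-CSF receptor, had 29 to 45 and 31 to 49 reads. IL23R, CSF3R and CRLF2, the specific chains for IL-23, G-CSF and TSLP, had reads in mock replicate 3 only (4, 11 and 1). CSF2RA had no read in any library; it lies, like CRLF2 and IL3RA, in a region that the X and Y chromosomes share, so counts of these 3 are uncertain.

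Counted by list, none of these receptor and partner genes passed the limma test in either direction. Of 7 IL-12 family partners and receptors 1 was tested, IL27RA (7.81 ± 0.313 and 8.15 ± 0.655 FPKM). EBI3, a chain of IL-27, had 9 to 20 and 7 to 20 reads, IL12RB2 had 2 to 6 over all libraries, and IL27 had reads in mock replicate 3 only (4). Of 16 genes of the common gamma chain and TSLP group 3 were tested, with a median log2 fold change of 0.06. Of 13 in the colony-stimulating factor group 1 was tested, KITLG, which makes stem cell factor (1.47 ± 0.0343 and 1.21 ± 0.336 FPKM). IL3RA had 0 to 7 reads and FLT3LG 1 to 4. Of 11 in the IL-10 and IL-20 group 2 were tested, with a median of 0.03, and IL10RB had 3 to 12 reads. Over the alternative analyses the medians of these lists and of the IL-17, JAK, STAT and SOCS, and mRNA decay lists crossed 0, except that of the colony-stimulating factor group.

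Components of the IL-17 response, which IL-23 drives through T cells, were measured as well. Of 13 listed 5 were tested and 0 passed; the median log2 fold change was 0.05. The receptor chains IL17RC (4.17 ± 0.496 and 4.71 ± 0.834 FPKM) and IL17RA (2.97 ± 0.0157 and 3.10 ± 0.0887 FPKM) and the adaptor TRAF3IP2 (3.61 ± 0.0991 and 3.53 ± 0.184 FPKM) were expressed. NFKBIZ, a nuclear cofactor of NF-kB induced by IL-17, stood at 2.30 ± 0.117 and 2.92 ± 0.485 FPKM (0.24, SE 0.11, limma adjusted p = 0.755). It passed by limma-voom with sample quality weights (adjusted p = 0.0189), where 0.615% of 16746 genes were called higher. By limma-voom on all libraries without weights its adjusted p was 0.759. IL17A, which T cells make, had 1 read, in mock replicate 3, and IL17F had 0.

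Of 19 JAK, STAT and SOCS genes, which carry and limit signals from most of these receptors, 15 were tested and 0 passed by limma, with 5 fold changes above 0 and a median of -0.05. Among the most abundant were JAK1 (19.6 ± 1.20 and 18.8 ± 4.18 FPKM), STAT3 (18.3 ± 0.954 and 17.0 ± 2.90 FPKM) and SOCS6 (11.4 ± 0.941 and 11.7 ± 1.66 FPKM). At an unadjusted p under 0.05 there were 2 of the 15, against 4.48% of all genes tested, the feedback inhibitors SOCS1 (log2 fold change 0.28, SE 0.11) and SOCS2 (0.21, SE 0.09). In both every TRPV3 library was above every mock one, as in 9.49% of genes averaging at least 1 FPKM; both were named after their values were seen. SOCS3, also named so, stood at 8.43 ± 0.637 and 10.7 ± 2.07 FPKM (0.30, SE 0.14, limma adjusted p = 0.755). It passed by limma-voom with sample quality weights (adjusted p = 0.019) and without TRPV3 replicate 1 (adjusted p = 0.0148, limma-voom), where 0.447% of 16784 genes were called higher. By limma-voom on all libraries without weights its adjusted p was 0.759. Other tested SOCS genes went the other way, SOCS4 (-0.15), SOCS5 (-0.05) and SOCS7 (-0.24), or stayed near 0, SOCS6 (0.03).

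Proteins that bind AU-rich or stem-loop elements decide how long cytokine messages last. All 11 listed genes were tested, 0 passed by limma, 6 had a fold change above 0 and the median was 0.01. KHSRP stood at 81.0 ± 4.28 and 74.0 ± 9.71 FPKM, HNRNPD at 63.8 ± 5.38 and 72.4 ± 6.23 FPKM, ZFP36L2 at 57.7 ± 0.512 and 57.9 ± 2.14 FPKM, and CNOT1, the scaffold of the deadenylase, at 47.9 ± 4.14 and 38.3 ± 14.5 FPKM, with TRPV3 replicate 1 at 21.6 FPKM. The largest upward difference was in ZC3H12A, named after its values were seen, which encodes Regnase-1, an RNase that degrades cytokine messages. It stood at 14.1, 13.1 and 15.0 FPKM in mock and 17.1, 19.1 and 19.1 FPKM in TRPV3 libraries (0.37, SE 0.08, limma adjusted p = 0.584). It passed by limma-voom with sample quality weights (adjusted p = 0.000965), where 0.615% of 16746 genes were called higher. By limma-voom on all libraries without weights its adjusted p was 0.759.

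Genes whose level followed that of a tested cytokine gene most closely over the 6 libraries were found by the root mean square difference between centred log2 values among the 12177 genes tested. For IL32 they were MED30 (0.0205), EEF1B2P3 (0.0348) and FTH1P11 (0.0390), the last 2 being pseudogenes that can share reads with their parent genes. For IL23A they were CDKN2AIP (0.0242), RBM26-AS1 (0.0391) and SOX9 (0.0422), a transcription factor of sebaceous progenitors. For CSF1 they were ZNF184 (0.0125), TAMM41 (0.0269) and PEX6 (0.0298). With 6 libraries and this many genes, profiles this close are a description only.

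**Figure D5:**
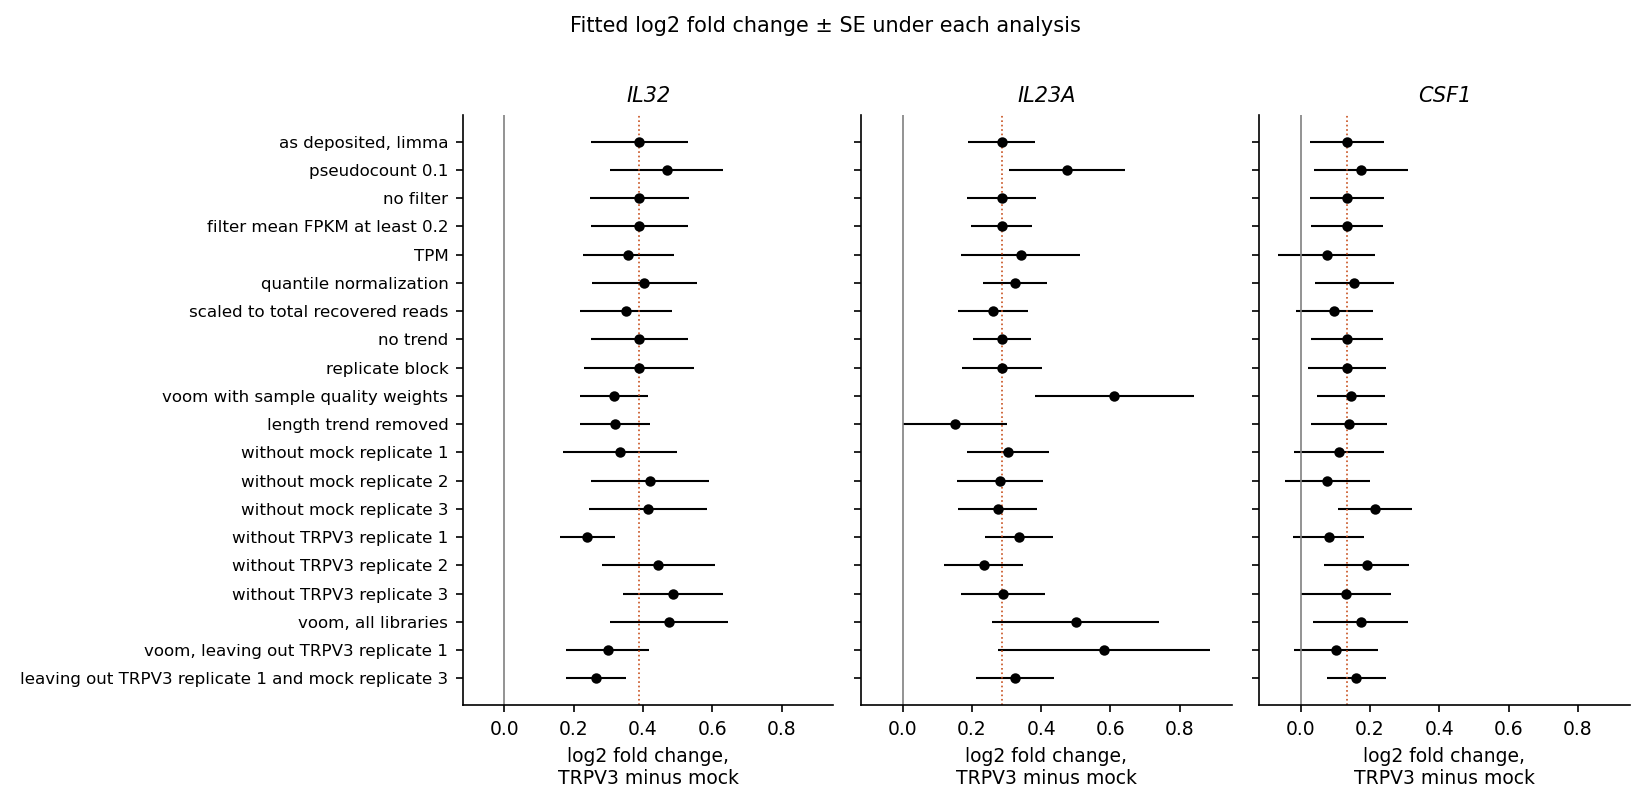
Fitted log2 fold change (TRPV3 minus mock) ± SE of IL32, IL23A and CSF1 under each analysis, 1 row per analysis; the grey line marks 0 and the dotted line the value with the deposited FPKM and limma. All points lie above 0; IL23A ranges from 0.15 with the length trend removed to 0.61 with voom quality weights.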

How the data were processed

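RNA of 6 SZ95 libraries was sequenced, 3 mock and 3 TRPV3. Per the labels' protocols the kit was NEBNext Ultra; the submitters' processing notes name HISAT2 2.0.5 and hg38; which counter and strand setting were used: not given in the sources used here. The authors deposited FPKM per gene, with gene length and other annotation, per the file headers. FPKM times length was a whole multiple of 1 step per library for 100% of values above 0 (tolerance 0.02 reads), which gave whole reads. Of 58735 genes, 58724 have the start and end of GENCODE 29.

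Genes averaging at least 1 FPKM were tested on log2(FPKM + 1) with limma 3.58.1 (R 4.3.3, mean-variance trend), Benjamini-Hochberg over 12177 genes, threshold 0.05; the test was tried on simulated data. Ratios and permutation tests used scipy 1.17.1. Voom used genes with a mean of at least 5 reads. The cytokine genes and lists were chosen with earlier results of these data known. Named beside them were the 4 most abundant genes of each of 7 lists (1 is not reported here) and the 3 closest profiles; other partner, receptor and family genes were named after their values were seen. Replicate numbers were not treated as pairs. Alternatives changed pseudocount, filter, scaling, trend, block, length trend and libraries; voom without weights (all libraries, or without TRPV3 replicate 1), the 0.2 FPKM filter without TRPV3 replicate 1, and removal of TRPV3 replicate 1 and mock replicate 3 were added after the data were seen.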

Additional observations from a re-analysis of the deposited data

How the results depend on the processing

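The count of 5 called genes was 2 with no filter, 125 by limma-voom with sample quality weights, 78 by limma-voom without TRPV3 replicate 1 and 9 without TRPV3 replicate 1 and mock replicate 3 together; it ran from 2 to 8 when 1 library was left out. The replicate block gave 3 called genes. Samples with the same number did not deviate together (correlations -0.27, -0.04 and -0.17). Deviations from a mean of 3 libraries offset each other, so these correlations cannot decide whether the numbers are a pairing. IL32, IL23A and CSF1 were tested in every analysis, the other genes only where low genes were admitted (TSLP with no filter alone); of the genes tested, only CSF3 was called, under limma-voom with sample quality weights (1 called). The cause of these shifts was not tested. The 4 genes without overlap became 8 without mock replicate 3 (7 above, where 11.8% of genes were, and 1 below, where 12.1% were) and 8 without both libraries (17.6% and 18.4% of genes). With 1 library left out the number ran from 4 to 8. IL7 and IL15 were below without mock replicate 2, IL7 without TRPV3 replicate 3 and TSLP without TRPV3 replicate 2. TSLP was also below when scaled to total reads or to a common FPKM sum. For these cases the share of all genes was not counted. Fewer libraries leave fewer values that can overlap, so leaving libraries out cannot lower the number of genes without overlap. Of the 7 genes under 1 FPKM, 3 had read intervals that left out 1 (IL24 and CSF3 above, where 3.34% of low genes were, and IL7 below, where 16.2% were), and 2 to 3 when 1 library was left out. Log2 fold changes ran from 0.24 to 0.49 for IL32, 0.15 to 0.61 for IL23A and 0.07 to 0.21 for CSF1 over 20 alternatives, and adjusted p from 0.19 to 0.966, 0.268 to 0.966 and 0.56 to 0.966. The fold changes of IL32, IL23A and CSF1 stayed above 0, but 6 of the 7 list medians, all near 0, crossed 0. Count models in edgeR and DESeq2 were planned but not run, since the deposited unit is FPKM. In their place limma-voom was run on the recovered reads. With 2 to 25 reads a library, CSF3 and other low genes allow only large ratios to be seen.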
